A study of Mus musculus and Rattus norvegicus with 12 samples.

Results

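The expression of 9 genes of retinoid uptake and signalling was followed across 12 cell lines by RNA sequencing: Stra6, Rbp4, Dhrs3, Crabp1, Crabp2, Rara, Rarb, Rarg and Cyp26a1. They were chosen by symbol, with earlier results of these data known. Of the 9, 9 were present among the 24411 genes of the mouse tables and the 17315 genes of the rat tables. In the mouse fit 7 of the 9 passed the filter on low counts. Rbp4 and Crabp2 did not.

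The mouse lines were all of the ICR strain and were derived from blastocysts: 3 pXEN lines (pXEN2, pXEN4 and pXEN6), 3 XEN lines (XEN1, XEN2 and XEN5) and 2 embryonic stem (ES) lines (ES2 and ES3). The 4 rat XENP lines were CX1 and MAX8 from WKY rats and MAX2 and MAX3 from F344 rats. XEN cells are stem cell lines of primitive endoderm, the blastocyst layer that forms yolk sac endoderm. pXEN and XENP lines shared a culture method, whereas serum and mouse embryo fibroblast feeders were used for XEN lines. ES lines were kept in serum, LIF and a pair of kinase inhibitors. Each sample was a separately derived line collected after 2 days of culture, passages ran from 9 to 40, and both sexes occurred in every group. Cell type and culture differed together in each mouse comparison and cannot be told apart.

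Retinol (vitamin A) travels in blood bound to the carrier RBP4 and enters cells through the receptor STRA6. Inside the cell it is oxidised to retinal and then to retinoic acid, while DHRS3 reduces retinal back to retinol. CRABP proteins bind retinoic acid in the cytoplasm, CYP26 enzymes degrade it, and nuclear receptors (RARα, RARβ and RARγ, paired with RXRs) carry its signal to DNA. Retinoic acid is classically used to turn embryonal carcinoma cells into endoderm, and yolk sac endoderm handles retinol from the maternal blood.

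Gene counts summed to between 2661691 and 3483069 in the mouse lines and between 1047535 and 1242937 in the rat lines, and in mouse 20.7% to 50.1% of these were Rn45s, the precursor of ribosomal RNA. All 9 extraembryonic endoderm markers were detected in every pXEN, XEN and XENP line, and in mouse their summed level was 4728 to 5863 CPM for pXEN, 4306 to 7492 CPM for XEN and 56.1 to 97.0 CPM for ES lines. The 9 ES markers together reached 5137 to 5264 CPM in ES, with 84.2 to 146 for pXEN and 33.0 to 50.6 for XEN lines. The 19 fibroblast markers summed to 602 to 697 CPM in XEN, with 17 or 18 detected per line. They summed to 20.0 to 25.6 CPM in pXEN and 15.1 to 18.8 in ES. The part of the feeders in the XEN values below was not tested. CPM, the depth-scaled read count, was computed here on TMM-scaled mouse libraries. In bulk libraries like these, fewer expressing cells and less RNA per cell cannot be told apart.

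Against ES lines, pXEN lines had more Stra6, Rarb, Cyp26a1 and Dhrs3 and less Rarg and Crabp1. XEN lines had more Stra6, Rarb and Dhrs3 and less Rarg and Crabp1 than ES lines, and their Cyp26a1 did not pass. In pXEN, 6 of the 7 tested members were thus called by edgeR's quasi-likelihood test (Benjamini-Hochberg adjusted p under 0.05), 4 up and 2 down. Of all 10895 genes tested 35.9% were called, 18.2% up and 17.8% down. In XEN, 5 of the 7 were called, 3 up and 2 down, where 38.4% of all genes were, 20.7% up and 17.8% down. No line of the group overlapped an ES line at any of these called members. They had been picked by the test on the same lines, so this separation adds no support of its own. Among all genes tested, called or not, the lines were separate for 30.3% (up) and 32.5% (down) in pXEN, and for 31.8% and 31.4% in XEN. The comparisons share the ES lines. Because the members were chosen with earlier results of these data known, their shares are no evidence of an excess over all genes. Between pXEN and XEN, Cyp26a1 alone of the 7 passed the test, where 0.918% of all genes were called higher and 3.63% lower in pXEN.

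Within a group, members were ordered by CPM per kilobase of merged exon. In pXEN the mean was 21.7 for Stra6, 14.1 for Cyp26a1, 4.61 for Dhrs3, 4.39 for Rara, 3.03 for Rbp4, 1.37 for Rarb and 0.900 for Rarg, with Crabp1 and Crabp2 lowest at 0.137 and 0.102. Stra6 led in every pXEN line, though in pXEN4 (14.1 against 11.9) and pXEN6 (26.5 against 23.5) Cyp26a1 was close behind. In XEN, Stra6 (33.3) stood far above Rara (6.63), Dhrs3 (3.09), Rarg (2.29) and Rarb (1.65), and Cyp26a1 (0.459) and Rbp4 (0.458) came last. In ES the order began with Rarg (28.7), Crabp1 (17.9) and Rara (6.31), and Stra6 (0.0562) and Rarb (0 counts) closed it. Crabp1 was above Rara in ES2 (29.1 against 9.28) and in ES3 (6.77 against 3.35), and both genes were higher in ES2 than in ES3. The order within a group was not tested.

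**Figure D1:**
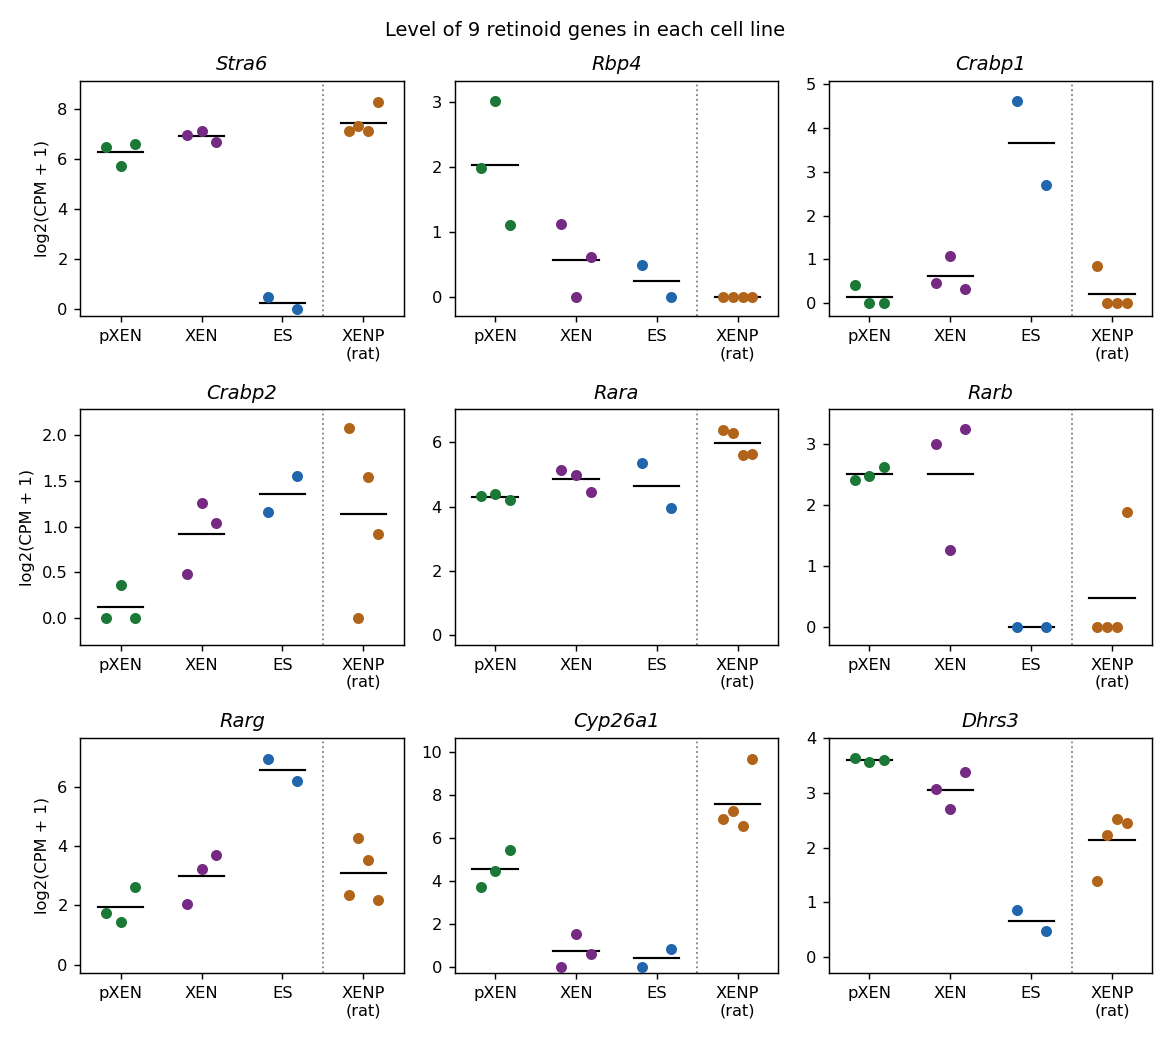
Level of each of the 9 genes in every line, as log2(CPM + 1), with 1 point per line and a black bar at the group mean of these values. The rat lines, right of the dotted line, are scaled separately from the mouse lines. Stra6 is high in every pXEN, XEN and XENP line and near 0 in ES, while Rarg is highest in ES.

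Stra6, the cell surface receptor for retinol-loaded RBP4 (chromosome 9, 58063788 to 58153996, plus strand, GRCm38), was the most abundant member in the mouse endoderm lines. It stood at 88.7 CPM in pXEN2, 51.4 in pXEN4 and 96.5 in pXEN6, and at 125 in XEN1, 137 in XEN2 and 101 in XEN5. ES2 held 1 Stra6 count and ES3 none. All 6 endoderm lines were therefore far above both ES lines. The level was 393-fold higher in pXEN than in ES (95% counting interval 70.4 to 15557, adjusted p = 6.06e-06 by edgeR) and 604-fold higher in XEN (108 to 23874, adjusted p = 4.11e-06). The fitted log2 values, 8.36 and 8.98, were 10.99 and 11.61 without ES2, which held the 1 ES count, and 7.46 and 8.08 without ES3. XEN exceeded pXEN without overlap between the lines, as 11.4% of all genes did, but this did not pass (log2 fold change of pXEN over XEN -0.62, SE 0.27, adjusted p = 0.308 by edgeR).

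Rbp4, which encodes the plasma carrier of retinol (chromosome 19, 38116629 to 38125281, minus strand, GRCm38), was low everywhere. It had 9, 25 and 4 counts in pXEN2, pXEN4 and pXEN6, with 3, 0 and 2 in XEN1, XEN2 and XEN5. The ES lines had 1 count and 0 counts, and the 4 rat lines had 0. The pXEN mean was 3.73 ± 3.05 CPM (SD, n = 3), and pXEN4 gave most of it. Pooled counts were 19.0-fold higher in pXEN than in ES (95% counting interval 3.21 to 769). Fitted without the filter on low counts, Rbp4 was called higher in pXEN than in ES (edgeR, adjusted p = 0.0263), and by DESeq2 it was not (adjusted p = 0.0872).

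Dhrs3, the retinal reductase that limits retinoic acid formation (chromosome 4, 144892827 to 144928209, plus strand, GRCm38), varied little among pXEN lines. It stood at 11.5 CPM in pXEN2, 10.8 in pXEN4 and 11.2 in pXEN6. In XEN1, XEN2 and XEN5 it reached 7.39, 5.55 and 9.49 CPM. ES2 and ES3 held 2 counts and 1 count, below every endoderm line. The ratio to ES was 18.6 in pXEN (95% counting interval 6.22 to 91.7, adjusted p = 0.000347 by edgeR) and 12.6 in XEN (4.14 to 62.4, adjusted p = 0.00100). Without ES2 the fitted log2 values of 4.13 and 3.56 were 4.72 and 4.14. All 3 pXEN lines were above all 3 XEN lines, as were 8.38% of all genes, but the difference did not pass (log2 fold change 0.57, SE 0.35, adjusted p = 0.515).

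The cytoplasmic binding proteins were nearly silent in endoderm lines. Crabp1 (chromosome 9, 54764748 to 54773110, plus strand, GRCm38) had 57 counts in ES2 and 14 in ES3, or 23.3 and 5.43 CPM. It had 1, 0 and 0 counts in pXEN2, pXEN4 and pXEN6 and 1, 4 and 1 in XEN1, XEN2 and XEN5. Pooled counts were 142-fold lower in pXEN than in ES (95% counting interval 24.7 to 5696, adjusted p = 0.000600 by edgeR). The fitted log2 value of -6.69 was -8.50 without pXEN2, -5.29 without ES2 and -7.39 without ES3. In XEN the fit gave a log2 fold change of -4.50 (SE 0.84, adjusted p = 0.00192), and the call was lost without ES2 (-3.10, adjusted p = 0.0746), while the value was -5.34 without XEN2 and -5.20 without ES3. Crabp2 (chromosome 3, 87948666 to 87953376, plus strand, GRCm38) had 1 count in all over the 3 pXEN lines, 10 over the XEN lines and 8 over the ES lines. Fitted without the filter, Crabp2 was called lower in pXEN than in ES (log2 fold change -3.50, SE 1.30, edgeR adjusted p = 0.0483), and DESeq2 did not call it (adjusted p = 0.125).

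The retinoic acid receptors differed in composition between ES and endoderm lines. Rara (chromosome 11, 98927818 to 98974942, plus strand, GRCm38) stood at 19.1, 19.9 and 17.5 CPM in pXEN2, pXEN4 and pXEN6 and at 33.8, 30.5 and 20.8 in XEN1, XEN2 and XEN5. ES2 had 39.7 and ES3 14.4 CPM, so the 2 ES lines enclosed all 6 endoderm lines. None of the 3 Rara comparisons passed (adjusted p from 0.324 to 0.907, edgeR). Its difference from ES was -0.52 on the log2 scale in pXEN (SE 0.39) and 0.07 in XEN (SE 0.39), and each changed sign when ES2 or ES3 was left out (0.39 and 0.98 without ES2, -1.07 and -0.49 without ES3).

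Rarg (chromosome 15, 102234938 to 102257517, minus strand, GRCm38) was the most abundant retinoic acid receptor of ES lines, at 122 CPM in ES2 and 72.6 in ES3. It was at 2.30, 1.70 and 5.16 CPM in pXEN2, pXEN4 and pXEN6 and at 3.11, 8.32 and 11.9 in XEN1, XEN2 and XEN5. Every endoderm line was below both ES lines. Rarg was 31.4-fold lower in pXEN than in ES (log2 fold change -4.97, SE 0.54, adjusted p = 8.06e-05 by edgeR) and 12.2-fold lower in XEN (-3.61, SE 0.49, adjusted p = 0.000380). Without pXEN6, the pXEN line with most Rarg, the pXEN value was -5.59. pXEN and XEN overlapped and did not differ by the test (-1.36, SE 0.53, adjusted p = 0.234).

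Rarb (chromosome 14, 16430839 to 16819156, minus strand, GRCm38) had 0 counts in both ES lines, where 3 counts over the group would be 0.598 CPM. It stood at 4.27, 4.55 and 5.16 CPM in pXEN2, pXEN4 and pXEN6 (47 counts). XEN1, XEN2 and XEN5 had 18, 5 and 32 counts, with a mean of 5.61 ± 3.72 CPM (SD, n = 3). Rarb was low but detected in all 6 endoderm lines, and it spread more among XEN lines than among pXEN lines. Against ES the rise in pXEN was at least 7.82-fold (adjusted p = 0.00664 by edgeR) and in XEN the bound was 9.23-fold (adjusted p = 0.00512). pXEN and XEN did not differ by the test (log2 fold change -0.26, SE 0.61, adjusted p = 0.924).

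Per kilobase of merged exon, the level summed over Rara, Rarb and Rarg was 6.67 ± 0.40 CPM per kilobase in pXEN (SD, n = 3), 10.6 ± 0.50 in XEN (n = 3) and 35.0 ± 14.6 in ES (n = 2). Rarg made up 79.5% of that sum in ES2 and 86.4% in ES3. Its share was 10.6%, 7.74% and 21.3% in pXEN2, pXEN4 and pXEN6, and 8.42%, 24.5% and 32.2% in XEN1, XEN2 and XEN5. Rara held the largest share in every endoderm line, from 44.8% in XEN5 to 72.6% in XEN1. Rarb took 19.7% to 21.3% in the pXEN lines and 4.09% to 22.9% in the XEN lines. These shares are descriptions, with no test of their own. Of the partner receptors, Rxrb held 94.5% to 97.9% of the summed RXR level in pXEN and 95.4% to 96.1% in XEN, against 62.1% and 90.1% in the ES lines.

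**Figure D2:**
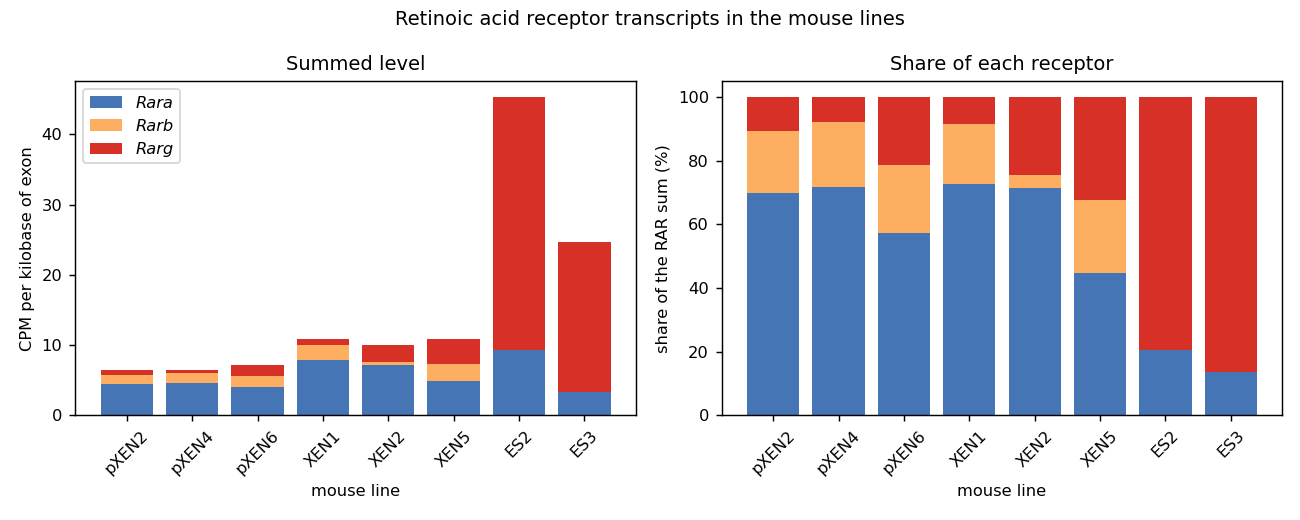
Retinoic acid receptor transcripts in the 8 mouse lines, as CPM per kilobase of exon stacked over Rara, Rarb and Rarg (left) and as each receptor's share of the sum in percent (right). Rarg fills most of the bar in ES2 and ES3, and Rara is the largest part in all 6 endoderm lines.

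Cyp26a1, the main enzyme that clears retinoic acid in the early embryo (chromosome 19, 37697798 to 37701536, plus strand, GRCm38), separated pXEN from XEN lines. It reached 12.2 CPM in pXEN2, 21.3 in pXEN4 and 42.1 in pXEN6. XEN1 had 0 counts, XEN2 had 7 and XEN5 had 2, or at most 1.94 CPM. ES2 had 0 and ES3 had 2 counts. The lowest pXEN line was thus above every XEN and ES line, although the pXEN lines also differed from each other. Cyp26a1 was 27.3-fold higher in pXEN than in XEN (log2 fold change 4.77, SE 0.78, adjusted p = 0.00688 by edgeR). With a line left out the log2 value ranged from 4.19 without pXEN6 to 6.17 without XEN2, and the adjusted p stayed at or below 0.0355. Against ES the pXEN ratio was 64.6 (95% counting interval 17.7 to 537, adjusted p = 0.00218). The fitted log2 value of 5.85 was 5.26 without pXEN6, 4.96 without ES2 and 9.34 without ES3, whose 2 counts were the only ones in ES. XEN and ES did not differ by the test (ratio 2.26, interval 0.469 to 21.5, adjusted p = 0.585). Of 16 tested fibroblast markers 15 were lower in pXEN than in XEN, opposite to Cyp26a1. Of the 9 ES markers 3 were higher, as Cyp26a1 was. Among them Pou5f1 was at 22.8 ± 14.5 CPM in pXEN and had 2 counts in XEN, and Zfp42 was at 16.2 ± 6.92 CPM and had 1 count (n = 3 each). Nanog had 1 count in each group, and Sox2 and Esrrb had 0. The part of either marker set in the Cyp26a1 difference was not tested.

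**Figure D3:**
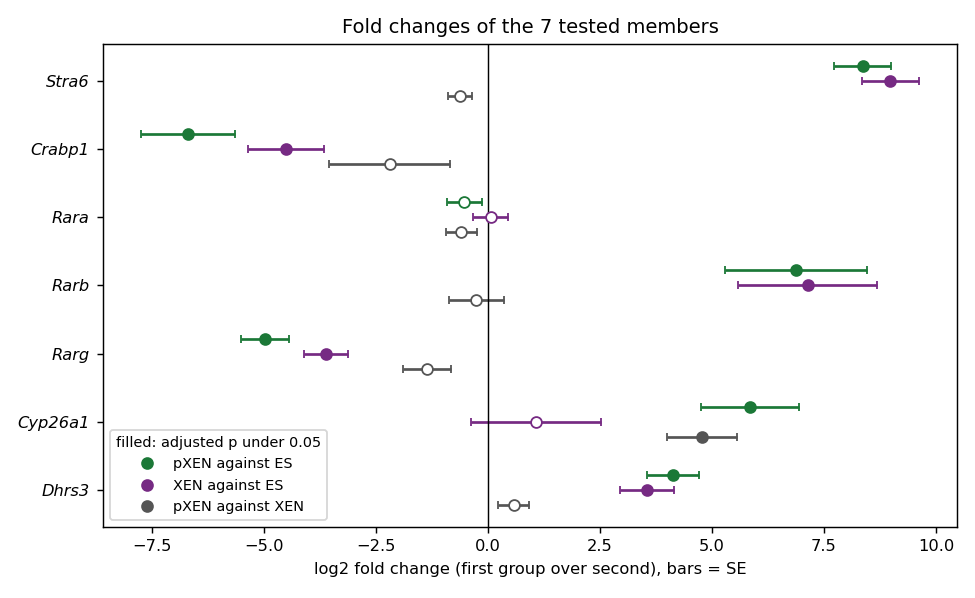
Fitted log2 fold changes of the 7 tested genes in the 3 mouse comparisons, with bars of 1 SE. Filled points passed an adjusted p of 0.05. Values for genes with 0 to 3 counts in a group depend on the fit's prior count. Cyp26a1 has the only filled point for pXEN against XEN, at 4.77.

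Rarb and Cyp26a1 are classical direct targets of retinoic acid receptors, which bind pairs of hexamers. Upstream windows of 250 bases were read from RefSeq (GRCm38.p6) for 8 of the 9 members, in 18 windows, and searched on both strands for the hexamers AGGTCA (the consensus), AGTTCA (changed inside), GGGTCA (changed at its start) and GGTTCA (changed at both). A single hexamer occurs in 38.6% of the 32851 windows of all genes and in 5 of the 18. A direct repeat of any such pair with 5 bases between occurs in 29 windows, or 0.0883%, and in 2 of the 18, those of Rarb and Cyp26a1. Neither of these repeats holds AGGTCA, so both matches depend on the changed hexamers that were allowed. Some windows of Rara and of Dhrs3 overlap, and the difference between these shares was not tested. Repeats with 1 or 2 bases between were also searched, and occurred in 54 and 57 windows of all genes and in no member window. Rarb and Cyp26a1 were known targets before the search, so their repeats with 5 bases between are no independent support. The repeats are shown with 6 bases on each side, read 5′ to 3′ on the strand that carries them, hexamers in capitals.
Rarb, chr14:16575507-16575535, minus strand: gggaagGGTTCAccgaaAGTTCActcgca
Cyp26a1, chr19:37697770-37697798, minus strand: caaattAGTTCAcccaaAGTTCAtcttta
The Rarb repeat lies 53 to 37 bases before the RefSeq start, on the gene's strand. Its window falls inside an exon of a longer GENCODE transcript. The Cyp26a1 repeat lies 32 to 16 bases before the RefSeq start, on the opposite strand. The repeats are identical at 15 of 17 positions and differ by G1A and G9C (Rarb base, position from 1 at the repeat's 5′ end, Cyp26a1 base). The match describes letters only, and whether a receptor was bound there was not measured. Of these genes, Cyp26a1 passed the test between pXEN and XEN and Rarb did not, as given above.

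The stretch before the Cyp26a1 start is shown because the pXEN and XEN difference rests on this gene. It spans chr19:37697558-37697797 on the plus strand, up to the GENCODE start, and the capitals mark the repeat as read on the gene's strand.
Cyp26a1 upstream: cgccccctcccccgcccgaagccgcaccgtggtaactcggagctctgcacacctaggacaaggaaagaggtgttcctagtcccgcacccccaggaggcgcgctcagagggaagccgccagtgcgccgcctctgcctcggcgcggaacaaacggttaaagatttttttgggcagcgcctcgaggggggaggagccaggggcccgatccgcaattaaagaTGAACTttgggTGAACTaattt

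**Figure D4:**
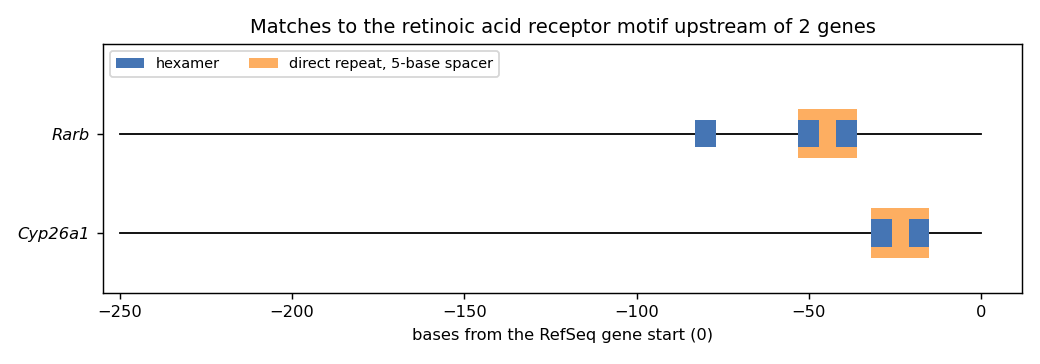
Position of the hexamers (blue) and of the direct repeat with 5 bases between (orange) in the 250 bases before the RefSeq starts of Rarb and Cyp26a1, in bases from the start. Each gene has 1 repeat, from 53 to 37 bases before the start in Rarb and from 32 to 16 in Cyp26a1.

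Rat XENP lines had Stra6 and Cyp26a1 at high levels and Rarb and Rbp4 near 0. Rat CPM is scaled to all gene counts and is not on the mouse scale, so no test was made across species. Stra6 stood at 138 CPM in CX1, 158 in MAX2, 137 in MAX3 and 311 in MAX8. Cyp26a1 stood at 118, 152, 94.5 and 824 CPM in the same order. MAX8 was the highest line for both genes, and Cyp26a1 there was 6.79-fold the mean of the other lines. Without MAX8 the means were 144 ± 12.1 CPM for Stra6 and 121 ± 28.7 for Cyp26a1 (SD, n = 3), against 186 ± 83.9 and 297 ± 352 with all lines (n = 4). CX1 and MAX8 are the WKY lines. The part of strain or passage in these values was not tested.

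Within each line, ranked among 14387 symbols shared by both species, Cyp26a1 lay at the 83.9th to 98.9th percentile in rat XENP and at the 60.6th to 81.1st in mouse pXEN. In XEN it lay at or below the 42.4th. Stra6 ranked at the 88.8th to 96.1st percentile in rat and at the 84.2nd to 94.8th in the mouse endoderm lines. Rara ranged from 47.7 CPM in MAX3 to 82.1 in CX1, and Rarg from 3.57 in MAX8 to 18.5 in MAX2. Rarb had 3 counts, all in MAX8. Dhrs3 had 2, 4, 5 and 5 counts, Crabp2 4, 0, 2 and 1, and Crabp1 1, 0, 0 and 0 in CX1, MAX2, MAX3 and MAX8. Rarb and Dhrs3 thus ranked low in rat, at most at the 39.9th and 44.7th percentile, where in pXEN they ranked at up to the 50.7th and 59.7th. At so few counts a rank depends on depth, and gene counts were lower in rat. Reads that mapped to several places made up 65.5% to 70.1% in rat and 7.84% to 9.65% in mouse. The part of depth in these rank differences was not tested.

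**Figure D5:**
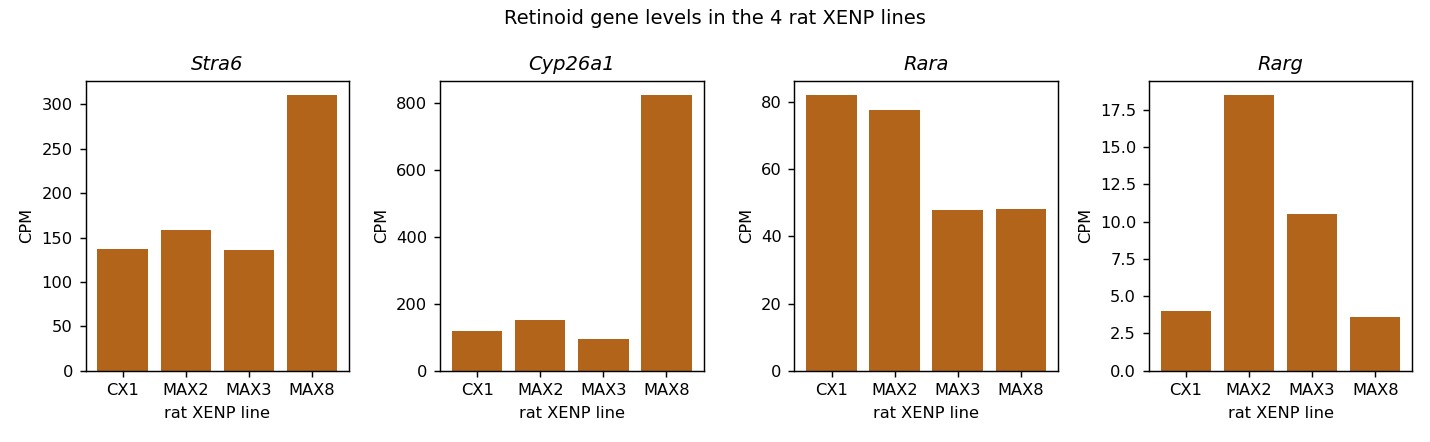
CPM of Stra6, Cyp26a1, Rara and Rarg in the 4 rat XENP lines, 1 bar per line, each panel on its own scale from 0. MAX8 holds the highest bar for Stra6 (311) and for Cyp26a1 (824) but not for Rara or Rarg.

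The wider pathway was read from 7 lists holding 105 genes beside the members. Of these, 49 were tested in mouse. With ES as the base, 13 rose and 11 fell in pXEN, or 49.0% of the 49 beside 35.9% of all genes. In XEN 13 rose and 9 fell, or 44.9% beside 38.4%. With XEN as the base, 3 fell in pXEN, or 6.12% beside 4.55%. The counts for the lists below are read against the same all-gene shares, and no difference from those shares was tested. The lists too were chosen with earlier results of these data known. The median log2 fold change over the 49 was -0.09 and 0.19 in the comparisons with ES, beside -0.03 and 0.00 over all genes tested.

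Among 7 tested genes of retinol uptake and transport, Stra6 included, 4 rose and 3 fell in pXEN relative to ES (median 3.94), where 18.2% of all genes rose and 17.8% fell. In XEN 4 rose and 2 fell (median 2.77), where 20.7% and 17.8% of all genes did. Cubn, a yolk sac endocytic receptor, averaged 234 ± 196 CPM over the pXEN lines (SD, n = 3), 431 ± 303 over the XEN lines (n = 3), and 3 counts in all over ES (adjusted p = 0.00406 and 0.00289 by edgeR). The fitted log2 value of Cubn, 8.51 in pXEN and 9.40 in XEN, was 7.61 without pXEN2 and 8.67 without XEN2, and without ES2 it was 9.10 and 9.99. Its partner Lrp2, which takes up RBP4 in kidney, rose 15.4-fold in pXEN and 6.81-fold in XEN (log2 fold change 3.94 and 2.77). The ES lines differed in Lrp2, at 8.19 CPM in ES2 and 33.4 in ES3, and its log2 values were 3.27 and 2.10 without ES2 and 5.30 and 4.11 without ES3. Ttr, the plasma partner of RBP4, had 122 counts in pXEN and 144 in XEN against 1 in ES. Leaving out ES2 or ES3 lost both Ttr calls (adjusted p between 0.0770 and 0.131 by edgeR), and its log2 value fell from 5.63 to 4.45 without pXEN4 and from 5.93 to 5.29 without XEN2. Scarb1, a lipoprotein and carotenoid receptor, fell 2.26-fold and 2.59-fold, and lost both calls without ES3 (adjusted p = 0.130 and 0.0704). Lrp1, a chylomicron remnant receptor, was 8.32-fold lower in pXEN than in ES and 6.85-fold lower than in XEN (adjusted p = 0.00121 and 0.00886). Lrp1 is also a fibroblast gene, and the fibroblast markers were high in XEN and low in ES as given above. Mean Lrp1 was 14.6 CPM in XEN and 17.6 CPM in ES. The part of feeders in the Lrp1 values was not tested.

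For retinol oxidation and storage, 7 of 28 listed genes were tested, Dhrs3 among them, and relative to ES 3 rose in pXEN and 2 in XEN (median 2.12 and 1.37). That is 42.9% and 28.6% of the list, beside 35.9% and 38.4% of all genes called. Rdh10, the main retinol dehydrogenase of the embryo, was at 11.3 ± 4.54 CPM in the pXEN lines and 8.85 ± 1.74 in the XEN lines (n = 3 each), with 2.58 ± 0.75 in the ES lines (n = 2) (log2 fold change 2.12 and 1.75, adjusted p = 0.00819 and 0.0211 by edgeR). Without ES2 both Rdh10 calls were lost (adjusted p = 0.0747 and 0.137), and without ES3 that of XEN (0.0634). The genes that follow were named after their values were seen. Aldh1a2, the retinaldehyde dehydrogenase that makes embryonic retinoic acid, had 24 counts in ES, 1 in XEN and 0 in pXEN and in the rat lines. Aldh1a3, its relative, had 24, 15 and 2 counts over the pXEN, XEN and ES lines. Rdh10 was at 107 to 362 CPM in rat, the 85.6th to 96.9th percentile, against the 53.1st to 64.5th in pXEN.

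Among 11 tested nuclear receptors, 2 rose and 2 fell relative to ES in each comparison (median -0.19 in pXEN and 0.19 in XEN). The 36.4% of receptors called was near the 35.9% and 38.4% of all genes. Beside Rarb and Rarg these were Nr2f2 and Rxra. Nr2f2, an orphan receptor, had 132 counts in pXEN and 96 in XEN against 3 in ES (adjusted p = 0.000376 and 0.000816 by edgeR), and its log2 values of 4.37 and 3.93 were 4.96 and 4.52 without ES2. Rxra, a dimer partner of RARs, was at 23.3 ± 19.7 CPM in ES (n = 2), from which pXEN fell 11.6-fold and XEN 6.20-fold (adjusted p = 0.000846 and 0.00359). These log2 values of -3.54 and -2.63 were -4.21 and -3.30 without ES2 and -2.23 and -1.32 without ES3, which lost the XEN call (adjusted p = 0.154). Rxrb, named after its values were seen, did not pass: its mean was 35.2 ± 8.04 CPM for pXEN (n = 3), 48.1 ± 10.7 for XEN (n = 3) and 49.4 ± 18.8 for ES lines (n = 2).

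Of 15 tested receptor coregulators, 5 fell in pXEN relative to ES, while in XEN 4 fell and 1 rose (median -0.41 in both). The share called, 33.3% in each, was no higher than that of all genes. The corepressor Ncor1 fell 2.68-fold and 2.51-fold and its partner Sin3a 2.52-fold and 2.20-fold. The coactivator Ep300 fell 1.81-fold and 1.85-fold, and Asxl1, a chromatin regulator, fell 2.64-fold in pXEN. Nrip1, a corepressor induced by retinoic acid in other cells, was at 13.8 ± 8.04 CPM in XEN against 3.00 ± 0.39 in ES (adjusted p = 0.0160 by edgeR). The calls of Ncor1 and Ep300 in both comparisons, and of Sin3a and Nrip1 in XEN, were each lost in at least 1 fit that dropped ES2 or ES3 (adjusted p as high as 0.144). Those of Ep300 were also lost without pXEN2, pXEN6 or XEN5, and that of Nrip1 without XEN2.

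Of 40 genes known to be induced by retinoic acid in other cells, 18 were tested, 4 of them members. Relative to ES, 11 of the 18 rose and 2 fell in each comparison, where 18.2% (pXEN) and 20.7% (XEN) of all genes rose and 17.8% fell in each. The median was 5.16 in pXEN and 3.93 in XEN, or 4.26 and 3.38 with genes at 0 counts set to their bound. Lamb1, a laminin chain of basement membrane, rose 211-fold and 192-fold, and Plat, tissue plasminogen activator, 134-fold and 104-fold. Zfp703, a zinc finger gene, had 127 and 166 counts against 0 in ES (at least 21.1-fold and 27.8-fold), and in pXEN the call did not hold when ES2 or ES3 was dropped (adjusted p = 0.0622 and 0.0616 by edgeR). The fitted log2 value of Zfp703 fell from 8.29 to 7.69 without pXEN4 and from 8.87 to 7.78 without XEN1. The transcription factor Ets1 had 373 and 234 counts against 3, all in ES3, and its log2 values of 5.86 and 5.17 were 4.94 and 4.25 without ES2 and 9.89 and 9.20 without ES3. Nav2, a neuron navigator gene, had 0 counts in pXEN and 69 in ES, at least 46.1-fold lower (adjusted p = 0.000209). Many of these genes are also products of parietal or visceral endoderm, so the list is not specific to retinoic acid.

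Between pXEN and XEN, Cyp26a1 was the 1 gene higher in pXEN of the 56 tested with the members, and Lrp1 and Nav2 were among the 3 lower. Nav2 had 0 counts in pXEN and 19 in XEN, at least 6.39-fold lower (adjusted p = 0.0226 by edgeR). The Nav2 call was lost without pXEN2, pXEN6 or XEN5 (adjusted p up to 0.0678).

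The genes closest to the members in pattern were sought among genes of at least 10 CPM, by Pearson correlation of log2(CPM + 1) over the 8 mouse lines, which share the contrast of ES with endoderm. For Stra6 these were Mogs (0.996), Loxl2 (0.994) and Zyx (0.993). For Cyp26a1 they were Zfp563 (0.966), Rrp8 (0.952) and Rab22a (0.9496), and for Dhrs3 Slc30a4 (0.996), Trip11 (0.995) and Ramp2 (0.993). Rarg was followed most closely by Kdm3a (0.987), Prpsap2 (0.976) and Usp28 (0.973), and Crabp1 by Prdx1 (0.987), Cdkal1 (0.986) and Usp28 (0.976). Rarb was nearest to Nprl3 (0.985), Nt5c (0.980) and Tmed10 (0.976). Rara had no gene as close, with Zfat (0.914), Pcmtd2 (0.903) and Supt5 (0.886).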

How the data were processed

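Each line had 1 deposited table of whole-number read counts per gene, in 3 columns that by their values are unstranded, own strand and reverse strand. Per the submitters' processing notes, which give no roles, the authors' tools included STAR 2.5.1, Trimmomatic 0.33, CASAVA 1.8.2 and DESeq2, with mm10 and rn6 as builds. The reverse-strand counts were used, holding 98.9% to 99.3% of stranded counts in mouse and 99.1% to 99.2% in rat. Rows for read classes that name no gene (73.4% to 78.3% of mouse and 89.7% to 91.8% of rat reads) were left out.

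All 8 mouse lines were fitted together with edgeR 4.0.16 (R 4.3.3): TMM, filterByExpr (minimum count 10), robust glmQLFit, glmQLFTest, Benjamini-Hochberg over 10895 genes, threshold 0.05. Standard errors are the absolute log2 fold change over the square root of F. Rat CPM used all gene counts of the line, without TMM. Groups came from titles and cell types. No libraries of a group agreed within counting noise, so each was counted once. A fold against a group without counts is a bound, set by 3 counts over that group. With 1 to 3 counts a pooled ratio with an exact 95% binomial interval is given. Both pool the lines of a group and cover counting error only, not the spread between lines. PCR reads are not independent molecules, so the intervals may be too narrow even for counting error. Lengths and coordinates are from GENCODE vM21 (GRCm38, the same assembly as mm10), and sequences from RefSeq GRCm38.p6.

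Members and lists were chosen with earlier results of these data known. All 9 members are named in each comparison. Of the lists, genes with at least 10 CPM in a mouse group that passed were eligible, up to 6 per list by absolute fold, and a few others are marked. Some listed genes are not reported here. The fit was tested on simulated counts for pXEN against ES, with the same spread set for every gene. It called 53.6% of genes changed by a log2 fold of 2 and 92.9% of those changed by 3. Of 10695 unchanged genes it called 9. A gene that did not pass may therefore still differ. Alternatives were other scalings, no filter, DESeq2 1.42.0, unstranded counts, removal of Rn45s, fits of 2 groups only and leaving out each line. Rat means without MAX8 were added after seeing the data. The trophoblast and neural marker lists summed to 0.790 to 24.8 CPM and 10.2 to 173 CPM per mouse line.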

Additional observations from a re-analysis of the deposited data

Results flagged for a closer look

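In rat, Stra6 and Cyp26a1 had 1 line that stood apart from the other 3 by Dixon's test at the 95% level. Chance passes this test in about 1 of 20 groups. It was run on the 9 members and on 34 pathway genes of at least 10 CPM in rat, and 0 of the 34 stood apart. Over so many genes, a few would pass by chance. MAX8 had 311 CPM of Stra6 (348 counts) where the others had 137 to 158. MAX8 also had 824 CPM of Cyp26a1 (923 counts), where the others had 94.5 to 152. Rarb at 2.68 CPM in MAX8 (3 counts) and Crabp1 at 0.805 CPM in CX1 (1 count) pass the same test only because the remaining lines have 0 counts, so the test says nothing there. Over 7528 rat genes of at least 10 CPM, MAX8 stood apart as the high line for 0.797% and CX1 for 2.92%. In MAX8, 0.0797% of these genes exceeded the mean of the other lines by at least as much as Cyp26a1, and 1.82% by at least as much as Stra6.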

How the results depend on the processing

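Over all alternatives, 256 of 257 refitted member values kept their direction (where called) and their side of the threshold. The exception was Crabp1 in XEN against ES without ES2, so that lower members there numbered 1 to 2 with a line left out. For the other pathway genes, 40 of 1789 refitted values lost a call, 18 gained one and 0 reversed. With a line left out, those genes numbered 8 to 14 higher in pXEN against ES, and 0 to 1 higher and 1 to 3 lower in pXEN against XEN. Without a filter on low counts, 14 were lower in XEN against ES. Over all genes, leaving out a line gave 1168 to 1818 higher in pXEN against ES, 1277 to 2158 higher and 1197 to 1834 lower in XEN against ES, and 63 to 86 higher and 255 to 362 lower in pXEN against XEN. The lowest of these came without ES2 in the comparisons with ES, and without XEN1 (higher) or pXEN2 (lower) between pXEN and XEN. A fit without a line tests fewer samples, and where an ES line was left out the other is assumed to vary like the other groups. Upper-quartile scaling moved the median of all genes by -0.11 in both comparisons with ES. CPM without TMM and without Rn45s was 1.48 to 1.57 times the values given in the 8 mouse lines, and the rat values use no TMM. No paired analysis was possible because the groups compared share fewer than 2 line numbers. Depth limits Rbp4, Crabp1, Crabp2 and, in rat, Rarb and Dhrs3, which rest on few counts.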
